A study of Mus musculus with 4 samples.

Results

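Pulmonary surfactant is made by alveolar type 2 (AT2) cells, and 9 genes for its proteins and for the organelle that stores it were followed across 4 single-cell libraries of mouse lung. They were matched by gene symbol among the 27998 genes of the deposited tables, and all 9 were found and had counts in every library. The 4 surfactant protein genes are Sftpc and Sftpb, for the hydrophobic proteins SP-C and SP-B, and Sftpa1 and Sftpd, for the collectins SP-A and SP-D. The 5 others are Napsa (napsin A, an aspartic protease that processes the precursors of SP-B and SP-C), Abca3 (the transporter that moves phospholipid into lamellar bodies), Lamp3 (a lamellar body membrane protein), Lpcat1 (an acyltransferase that makes saturated phosphatidylcholine) and Slc34a2 (the sodium phosphate cotransporter that takes up phosphate freed from surfactant phospholipid).

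AT2 cells pack surfactant lipid together with SP-B and SP-C into lamellar bodies, acidic organelles related to lysosomes, and release it by exocytosis. SP-B and SP-C spread the lipid film at the air surface, and loss of SP-B or of ABCA3 causes lethal respiratory failure at birth in mice and humans. SP-A and SP-D bind microbes, and club cells of the airway also make SP-A, SP-B and SP-D, whereas SP-C is restricted to AT2 cells.

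All mice carried Sftpc-creER;Rosa26-mTmG and had been given tamoxifen, so that cells with Cre activity turned from membrane Tomato to membrane GFP. The 4 groups were mice aged 12 months at day 30 after bleomycin, mice aged 3 months at day 30 after bleomycin, mice aged 12 months given PBS and labelled day 0, and mice aged 3 months given PBS and labelled day 0. Bleomycin, a drug that injures the alveolar epithelium, was delivered once into the trachea at 0.8 U/kg. GFP-positive cells without CD45 (leukocytes) or CD31 (endothelium) were sorted, the cells of 3 mice were pooled, and 1 library per group was made with the 10x Genomics 3' kit. Cre was driven from the promoter of Sftpc, itself 1 of the 9 genes, so a high Sftpc level is partly what the sort selected. Treatment and sampling day changed together and cannot be told apart. With 1 library per group there is no spread between mice, no test was made, and every interval below covers counting error only.

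After cells with under 500 genes or over 20% mitochondrial counts were dropped, there were 2993 cells in bleomycin 12-month, 2624 in bleomycin 3-month, 2745 in PBS 12-month and 2394 in PBS 3-month. They held 36910884, 23318201, 14126266 and 11298801 counts of unique molecules in the same order, with medians of 11760, 8315.5, 5080 and 4555 counts per cell. The bleomycin libraries were therefore deeper, and had lower median mitochondrial shares (2.31% and 3.36%, against 5.02% and 5.21% in PBS). Pairs of libraries shared 7 to 20 cell barcodes. Clusters were drawn without the 9 genes. AT2-like clusters held 74.6% of bleomycin 12-month cells, 83.9% of bleomycin 3-month cells, 94.5% of PBS 12-month cells and 96.9% of PBS 3-month cells. A different AT2-like cluster held most of them in each library, and AT2-like was the default name of a cluster without markers of another class. All 14 AT2 markers outside the 9 genes had at least 1 count in AT2-like cells of every library. In at least 20% of cells, all 14 were detected in each AT2-like cluster. The same held for 14 in the proliferating, 13 in the club-like and 12 in the macrophage-like cluster, so this detection does not set AT2-like cells apart. Despite the CD45 gate, macrophage-like cells numbered 311 in bleomycin 12-month, 64 in bleomycin 3-month, 49 in PBS 12-month and 7 in PBS 3-month. In a finer clustering (Leiden resolution 1) 153 of these 431 cells fell into a T or NK cluster, 105, 22, 24 and 2 in the order of the libraries, and the other 278 stayed with the macrophage markers.

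Promoter windows of 300 bases, reaching from 250 bases before the start of the gene, were listed in RefSeq (GRCm38.p6) for 6 of the 9 genes, Sftpb, Sftpa1, Slc34a2, Abca3, Lamp3 and Lpcat1. They were searched on both strands for CTCAAG, a core of sites that bind NKX2-1, the lung epithelial transcription factor, and for TTGCGCAA, the palindromic site of C/EBP factors. The 3 windows with a match are shown, with the match in capitals, as the windows in which either motif stood.
Sftpb, chr6:72304360-72304659 (plus strand): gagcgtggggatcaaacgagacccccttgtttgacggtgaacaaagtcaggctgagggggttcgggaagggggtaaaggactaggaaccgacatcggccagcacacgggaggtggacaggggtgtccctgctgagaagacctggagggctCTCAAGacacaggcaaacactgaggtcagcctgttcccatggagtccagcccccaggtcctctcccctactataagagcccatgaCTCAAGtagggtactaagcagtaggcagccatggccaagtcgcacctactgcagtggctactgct
Sftpa1, chr14:41131538-41131837 (plus strand): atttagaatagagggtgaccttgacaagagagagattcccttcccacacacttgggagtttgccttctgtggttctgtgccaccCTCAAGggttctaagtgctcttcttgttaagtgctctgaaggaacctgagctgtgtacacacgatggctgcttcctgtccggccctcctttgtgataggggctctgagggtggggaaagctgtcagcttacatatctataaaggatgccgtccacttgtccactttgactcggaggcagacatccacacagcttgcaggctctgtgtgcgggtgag
Slc34a2, chr5:53049103-53049402 (plus strand): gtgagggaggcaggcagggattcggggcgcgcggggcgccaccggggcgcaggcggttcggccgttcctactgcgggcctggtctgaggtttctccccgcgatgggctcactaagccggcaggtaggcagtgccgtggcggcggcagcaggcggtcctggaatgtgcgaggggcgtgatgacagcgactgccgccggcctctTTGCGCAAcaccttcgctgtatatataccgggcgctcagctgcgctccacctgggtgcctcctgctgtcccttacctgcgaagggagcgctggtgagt

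The Sftpb window held CTCAAG 2 times, beginning 100 and 15 bases before the start. The Sftpa1 window held it 1 time, 166 bases before the start. Of all 27025 promoter windows, 16.2% held CTCAAG at least once and 1.41% at least 2 times, so the single match in Sftpa1 is a common occurrence and the pair in Sftpb a less common one. The windows of Slc34a2, Abca3, Lamp3 and Lpcat1 held no CTCAAG. TTGCGCAA stood in the Slc34a2 window, 48 bases before the start, and in 0.185% of all windows. The RefSeq start of Slc34a2 used here lies inside the longer GENCODE gene. The 2 motifs do not overlap in any of the 3 windows shown. A match of letters is a description of the window and not of binding.

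Sftpc was the most abundant of all genes in each library. Its level was 137561 CPM (its counts summed over the kept cells, relative to those of all genes, per library) in bleomycin 12-month, 148418 in bleomycin 3-month, 143657 in PBS 12-month and 129331 in PBS 3-month. Each molecule is counted at its 3' end, so these levels are not divided by gene length. Sftpc (chromosome 14, 70520949 to 70524081, minus strand, GRCm38) differed little between libraries, with the highest value in 3-month bleomycin mice and the lowest in 3-month PBS mice.

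Sftpa1 followed with 27308, 29289, 31245 and 27486 CPM in bleomycin 12-month, bleomycin 3-month, PBS 12-month and PBS 3-month. Sftpb (chromosome 6, 72304610 to 72314371, plus strand) had 16143, 16919, 14370 and 14102 CPM in the same libraries. Sftpa1 was highest in 12-month PBS mice, whereas both bleomycin libraries were above both PBS libraries for Sftpb. Sftpd had 6044 CPM in bleomycin 12-month, 4576 in bleomycin 3-month, 3650 in PBS 12-month and 3423 in PBS 3-month. It stood at rank 11 of all genes in 12-month bleomycin mice and at rank 31 in 3-month PBS mice, and its bleomycin values lay above its PBS values.

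Of the genes outside the surfactant proteins, Napsa (chromosome 7, 44572380 to 44586862, plus strand) had 2758 CPM in bleomycin 12-month, 2202 in bleomycin 3-month, 1373 in PBS 12-month and 1312 in PBS 3-month. Its rank among all genes was 29 and 41 in the bleomycin libraries, against 103 and 106 in the PBS libraries. Slc34a2 (chromosome 5, 53038081 to 53071664, plus strand) ran the other way, with 2112, 2978, 3249 and 3544 CPM. The 12-month bleomycin mice had the lowest Slc34a2 and the 3-month PBS mice the highest. Each of these 2 genes overlaps a gene on the opposite strand, Gm15396 for Napsa with at most 0.858 CPM and Gm17182 for Slc34a2 with at most 13.4 CPM.

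Lpcat1 (chromosome 13, 73467197 to 73516422, plus strand) had 727 CPM in bleomycin 12-month, 938 in bleomycin 3-month, 1006 in PBS 12-month and 966 in PBS 3-month. Lamp3 (chromosome 16, 19653378 to 19706375, minus strand) had 740, 810, 778 and 969 CPM, and Abca3 (chromosome 17, 24351950 to 24410201, plus strand) had 451, 552, 520 and 645 CPM. The 12-month bleomycin mice were lowest for all 3 of these genes over all cells. In AT2-like cells Lamp3 had 850 CPM in bleomycin 12-month and 813 in PBS 12-month, and its ratio at 12 months was above 1 in 5 of the 13 alternatives tried. The order of levels was the same in every library for Sftpc, Sftpa1, Sftpb and Sftpd, and Abca3 was the lowest of the 9 in each. Napsa exceeded Slc34a2 in bleomycin 12-month alone, and Lamp3 and Lpcat1 changed places between libraries, with overlapping intervals in bleomycin 12-month and PBS 3-month, the 2 libraries in which Lamp3 had the higher value.

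**Figure D1:**
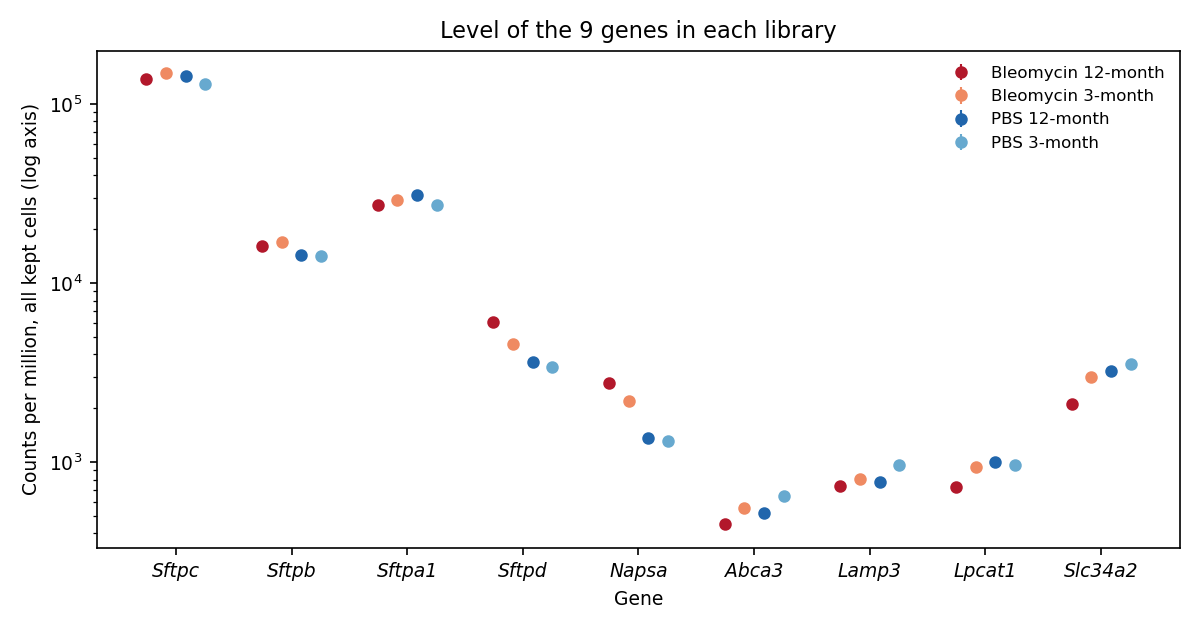
Level of each of the 9 genes in CPM over all kept cells (log axis), 1 point per library, with exact Poisson 95% intervals that are mostly smaller than the points. Sftpc lies between 129331 and 148418 in the 4 libraries, Sftpd and Napsa stand higher in both bleomycin libraries than in both PBS libraries, and Slc34a2 is lowest in bleomycin 12-month.

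The 9 genes took 19.4% of all counts in bleomycin 12-month, 20.7% in bleomycin 3-month, 19.98% in PBS 12-month and 18.2% in PBS 3-month. Sftpc made up 71.0% to 71.9% of that sum in every library. The make-up of the remainder differed more. Sftpd gave 3.12% and 2.21% of the sum in 12-month and 3-month bleomycin mice, against 1.83% and 1.88% in 12-month and 3-month PBS mice. Napsa gave 1.42% and 1.07% in the bleomycin libraries, against 0.687% and 0.722% in the PBS libraries, while Slc34a2 gave 1.09% and 1.44%, against 1.63% and 1.95%.

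Bleomycin at 12 months was set against PBS at 12 months. Napsa was 2.01-fold higher (95% interval 1.98 to 2.04) and Sftpd 1.66-fold higher (1.64 to 1.67) in bleomycin 12-month, and Slc34a2 was 1.54-fold lower (1.52 to 1.56). These were the members past 1.5-fold, 2 of 9 higher and 1 of 9 lower, where 19.4% of the 4842 genes at 20 CPM or more in either library were higher and 10.5% lower. The members' share was near that background, which held 938 genes higher and 509 lower, or 739 and 682 when scaled by median-of-ratios size factors. The other 6 lay within 1.5-fold, from Lpcat1 at 0.722 of its PBS level (0.708 to 0.737) to Sftpb at 1.12 (1.12 to 1.13), with Sftpa1 at 0.874, Abca3 at 0.869, Lamp3 at 0.951 and Sftpc at 0.958. The median log2 ratio was -0.07 over the 9 genes and 0.12 over all genes compared.

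At 3 months the same contrast gave 1 member past 1.5-fold. Napsa was 1.68-fold higher (1.65 to 1.71) in bleomycin 3-month, 1 of 9 members, where 10.8% of 4904 genes were higher, and 0 of 9 were lower, where 9.73% were (364 and 685 genes with median-of-ratios scaling in place of 530 and 477). The ratios of the 4 surfactant protein genes were above 1 at 3 months, except Sftpa1 with median-of-ratios scaling (log2 ratio -0.02). They were Sftpd at 1.34 (1.32 to 1.35), Sftpb at 1.20 (1.19 to 1.21), Sftpc at 1.15 (1.15 to 1.15) and Sftpa1 at 1.07 (1.06 to 1.07). Lpcat1 at 0.971, Abca3 at 0.855, Slc34a2 at 0.840 and Lamp3 at 0.836 were below 1, though Lpcat1 was above 1 in AT2-like cells and all 4 were in AT2-like cells of 5000 to 8000 counts, Lamp3 only just (909 CPM in bleomycin 3-month and 905 in PBS 3-month). The median log2 ratio was 0.09 over the 9 genes, against 0.02 over all genes compared.

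The log2 ratio of bleomycin to PBS was larger at 12 than at 3 months for Sftpd by 0.31 (0.29 to 0.33) and for Napsa by 0.26 (0.22 to 0.29). For Lamp3, below its PBS level at both ages over all cells, the log2 ratio was larger by 0.19 (0.14 to 0.23). The log2 ratio was lower at 12 months for Lpcat1 (difference -0.43, -0.47 to -0.38), Slc34a2 (-0.37, -0.39 to -0.35), Sftpa1 (-0.29), Sftpc (-0.26) and Sftpb (-0.0950). For Abca3 the difference was 0.02, with an interval of -0.04 to 0.08. Between mice these differences were not tested, since each rests on 1 library per group.

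Age was compared within each treatment. Among bleomycin mice, 0 of 9 members were 1.5-fold higher or lower at 12 months than at 3 months, where 5.04% of 4766 genes were higher and 3.50% lower (214 and 228 genes with a total without the 20 most abundant genes, in place of 240 and 167). Slc34a2 was at 0.709 of its 3-month level (0.702 to 0.716), Lpcat1 at 0.774 and Abca3 at 0.818, while Sftpd was at 1.32 (1.31 to 1.33) and Napsa at 1.252 (1.24 to 1.27). Among PBS mice, 0 of 9 were past 1.5-fold as well, where 2.73% of 4584 genes were higher and 3.45% lower. Lamp3 and Abca3 were lowest there, at 0.803 (0.782 to 0.824) and 0.806 (0.780 to 0.832) of the 3-month level, and Sftpa1 and Sftpc were highest, at 1.14 and 1.11. These age comparisons use the same 4 libraries as the bleomycin comparisons.

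Cell mixture moved with these ratios, because AT2-like cells made up 74.6% of the bleomycin 12-month library and 94.5% of the PBS 12-month library. In AT2-like cells alone, Sftpc had 160494 CPM in bleomycin 12-month and 150189 in PBS 12-month, a ratio of 1.07 (1.07 to 1.07) in place of 0.958. Slc34a2 had 2479 CPM in bleomycin 12-month and 3405 in PBS 12-month, 1.37-fold lower, so it no longer passed 1.5-fold. Napsa was 2.22-fold higher (2.18 to 2.25) and Sftpd 1.81-fold higher (1.80 to 1.83) in AT2-like cells at 12 months, 2 of 9 members where 17.0% of the 4661 genes compared in these cells were higher. At 3 months Napsa was 1.81-fold higher (1.78 to 1.84) and Sftpd 1.41-fold higher (1.40 to 1.43) in AT2-like cells of bleomycin mice.

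Depth moved with them too. AT2-like cells of each library were split at the quartiles of their counts. From the shallowest to the deepest cells the median share of the 9 genes was 22.3%, 24.5%, 24.0% and 22.8% in bleomycin 12-month and 21.4%, 24.1%, 24.0% and 23.6% in bleomycin 3-month. It was 17.2%, 20.2%, 22.4% and 22.7% in PBS 12-month and 13.6%, 16.6%, 19.7% and 21.3% in PBS 3-month. The share thus increased with depth throughout in the PBS libraries, and in the bleomycin libraries was highest in the second set of cells and lower in the deepest ones. AT2-like cells of 5000 to 8000 counts were therefore compared, 275 of bleomycin 12-month, 692 of bleomycin 3-month, 1234 of PBS 12-month and 822 of PBS 3-month. In these cells the 9 genes took 21.5%, 23.1%, 22.0% and 20.5% of the counts.

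In that window Napsa had 2718 CPM in bleomycin 12-month and 1542 in PBS 12-month, 1.76-fold higher, and Sftpd had 6437 and 4002 CPM, 1.61-fold higher. Napsa had 2234 CPM in bleomycin 3-month and 1504 in PBS 3-month, 1.48-fold higher, just under the threshold. Slc34a2 had 3275 CPM in bleomycin 12-month and 3161 in PBS 12-month, and 3846 in bleomycin 3-month and 3138 in PBS 3-month, so its lower level in bleomycin mice was not seen in this window. Lpcat1 likewise stood at 983 CPM in bleomycin 12-month and 976 in PBS 12-month. The window takes shallow cells of the bleomycin libraries and deep cells of the PBS libraries, with medians of 6749, 6799, 5942.5 and 5873 counts in the order above.

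**Figure D2:**
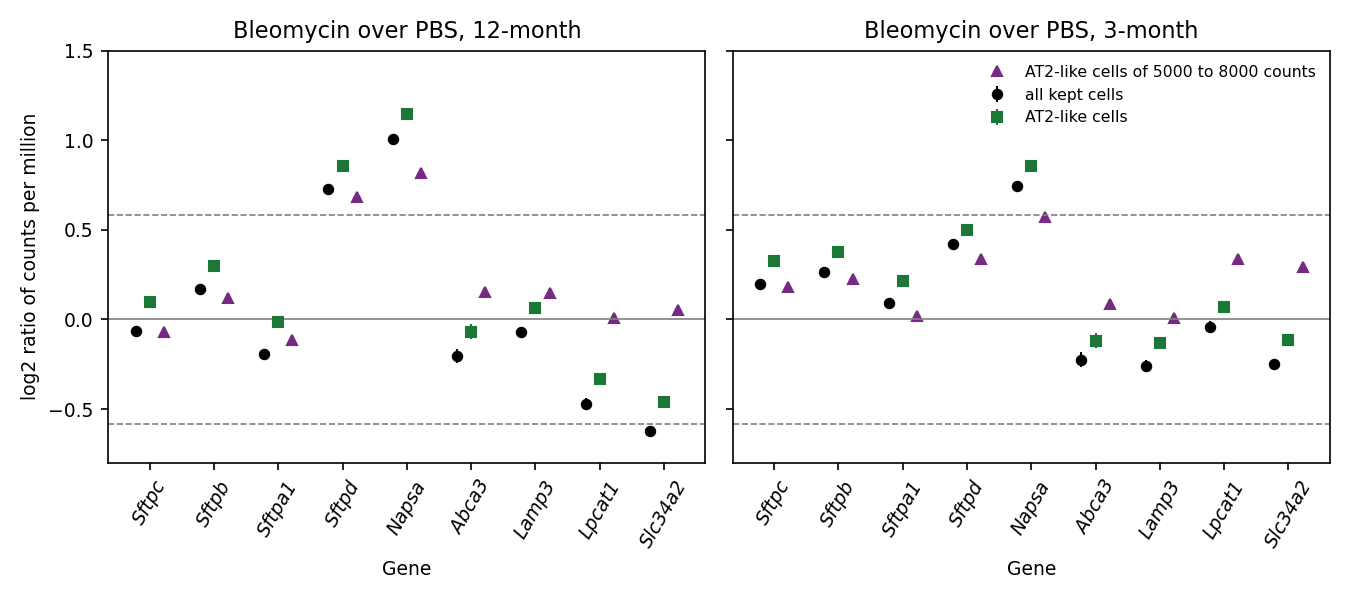
Log2 ratio of CPM in bleomycin over PBS for each gene, at 12 months (left) and 3 months (right), over all kept cells (circles), AT2-like cells (squares) and AT2-like cells of 5000 to 8000 counts (triangles). Bars on the circles and squares are exact 95% counting intervals, dashed lines mark 1.5-fold, and Napsa and Sftpd are above 0 in each set of cells at both ages while Slc34a2 changes side with the depth window.

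Per cell, members were described in AT2-like cells thinned to 3000 counts each, 2233 cells of bleomycin 12-month, 2143 of bleomycin 3-month, 2337 of PBS 12-month and 1950 of PBS 3-month. Cells under 3000 counts were left out, from 2233, 2202, 2593 and 2320 AT2-like cells in the same order. Shallow cells were thus left out mainly from the PBS libraries. Median Napsa was 9 and 7 counts per thinned cell in 12-month and 3-month bleomycin mice, against 4 and 3 in 12-month and 3-month PBS mice. Median Sftpd was 19 and 13 counts in the bleomycin libraries, against 10 and 9 in the PBS libraries. The 5th to 95th percentiles of Napsa ran from 3 to 17 counts in bleomycin 12-month and from 1 to 9 in PBS 12-month, so the distributions overlapped. Median Slc34a2 was 7 and 10 counts in bleomycin, against 10 and 11 in PBS.

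Sftpa1 had similar medians but a wider spread between AT2-like cells of bleomycin mice. Its median was 97, 93, 95 and 80 counts per thinned cell in bleomycin 12-month, bleomycin 3-month, PBS 12-month and PBS 3-month. Its 5th percentile was 22.0 and 33.1 counts in 12-month and 3-month bleomycin mice, against 49.0 and 39.0 in 12-month and 3-month PBS mice. Its coefficient of variation was 0.488 and 0.426 in bleomycin, against 0.330 and 0.377 in PBS. Sftpb, by comparison, had coefficients of 0.316 to 0.321 in all 4 libraries, and Sftpc 0.277 and 0.257 in bleomycin, against 0.281 and 0.318 in PBS. Across AT2-like cells Sftpa1 went with the summed counts of the other AT2 markers (Pearson's r of log counts 0.57 and 0.36 in bleomycin, 0.33 and 0.40 in PBS), a description over cells that share a library and a depth. With the same sum Sftpc had r of 0.40 and 0.28 in bleomycin and 0.31 and 0.36 in PBS. Sftpb had 0.14 and 0.22 in bleomycin and 0.22 and 0.23 in PBS. Lyz2 is 1 of these markers and is abundant. In AT2-like cells of bleomycin 12-month the macrophage markers summed to 36991 CPM with Lyz2 and to 103.7 without it. The part of Lyz2 in these r was not tested.

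Between genes, Pearson's r of log(1 + count) was taken across AT2-like cells in each library, and the sets below were drawn after its values were seen. Sftpa1 and Sftpd, collectin genes 35.8 kilobases apart on chromosome 14 (41131782 to 41136452, plus strand, and 41172214 to 41185149, minus strand), had r of 0.47, 0.49, 0.46 and 0.47 in bleomycin 12-month, bleomycin 3-month, PBS 12-month and PBS 3-month. Napsa went with Sftpb, 1 of the proteins it processes, at r of 0.26 to 0.41, and with Sftpc, the other, at 0.17 to 0.36. With the collectin genes it had r of 0.23 to 0.31 for Sftpd and 0.09 to 0.37 for Sftpa1. All 10 pairs among the surfactant proteins and Napsa were above 0 in all 4 libraries, with medians of 0.20 and 0.21 in 12-month and 3-month bleomycin mice and 0.31 and 0.39 in 12-month and 3-month PBS mice.

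Abca3, Lamp3, Lpcat1 and Slc34a2 were weakly positive with one another, with r of 0.05 to 0.21 over their 6 pairs. Their 20 pairs with the first set had medians of 0.04 and -0.02 in 12-month and 3-month bleomycin mice, and of -0.08 and -0.13 in 12-month and 3-month PBS mice, where 0 of 20 were above 0. Thinning gives every cell the same total, so a cell with more Sftpc has fewer other counts, and these 4 genes had medians of only 1 to 11 counts per thinned cell, so no relation is read from such values. With counts per non-member count in place of thinning, the medians of those 20 pairs were 0.18, 0.06, -0.05 and -0.07. The surfactant protein and Napsa pairs were then all above 0, with medians of 0.37, 0.35, 0.44 and 0.50. Dividing all genes of a cell by the same count can itself raise every r, so this scaling does not settle the point. In bleomycin 12-month the 6 pairs among Abca3, Lamp3, Lpcat1 and Slc34a2 also had a higher median with it (0.30, against 0.13 with thinning).

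**Figure D3:**
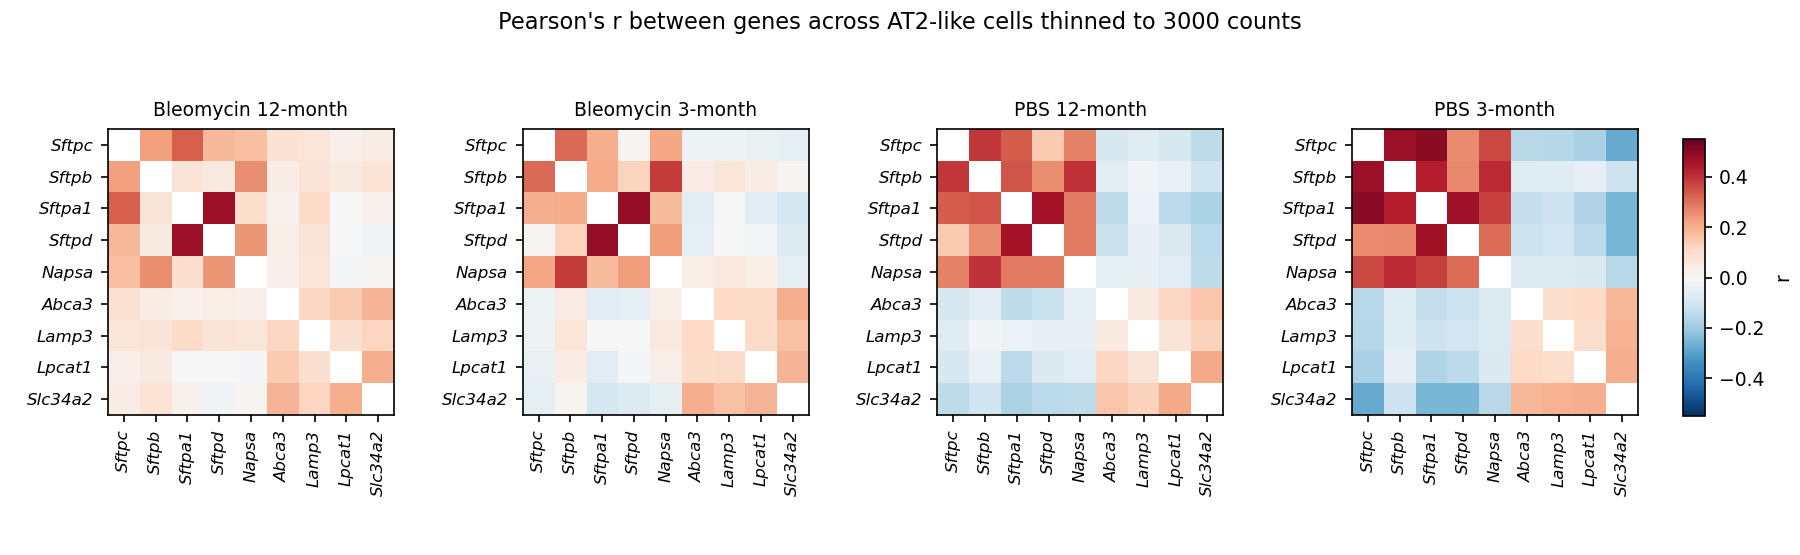
Pearson's r between each pair of genes across AT2-like cells thinned to 3000 counts, 1 panel per library, red above 0 and blue below. Sftpc, Sftpb, Sftpa1, Sftpd and Napsa form a red block in each library, and their pairs with Abca3, Lamp3, Lpcat1 and Slc34a2 are pale in the bleomycin libraries and blue in the PBS libraries.

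The summed counts of the 9 genes followed Sftpc (r of 0.91 to 0.96 across AT2-like cells), while Abca3, Lamp3, Lpcat1 and Slc34a2 had r of -0.27 to 0.12 with that sum. Sftpc made up 71.0% to 71.9% of the sum over all cells, so its high r was set by the make-up of the sum. Nearness to the sum is therefore largely nearness to Sftpc. Thinning also gives every cell the same total, so no relation is read from the low r. Outside the 9 genes, those most like the sum, among 434 genes ranked by the lowest r of the 4 libraries, were Lyz2 (0.24), H2-Aa (0.23), Wfdc2 (0.23), Cd74 (0.22) and Cxcl15 (0.19). Lyz2 encodes lysozyme and Cxcl15 a chemokine of lung epithelium, and H2-Aa and Cd74 belong to MHC class II antigen presentation.

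The 9 genes were then followed through the other populations of the sort. In AT2-like cells their median share of a cell's counts was 23.4% and 23.5% in 12-month and 3-month bleomycin mice, against 20.9% and 18.0% in 12-month and 3-month PBS mice. In proliferating cells it was 15.02% in bleomycin 12-month (116 cells) and 17.6% in bleomycin 3-month (22 cells), against 14.2% in PBS 3-month (17 cells). The cluster named AT1-like was led by Cldn4, a marker of transitional alveolar cells, and had the AT1 markers Akap5 and Hopx among its top 10 genes. In the finer clustering 418 of its 433 cells fell into a cluster named transitional alveolar and no AT1 cluster remained, so the name AT1-like depends on the clustering. Its cells were spread widely. Their median was 8.82% in bleomycin 12-month (181 cells), 7.30% in bleomycin 3-month (202 cells), 5.86% in PBS 12-month (31 cells) and 9.12% in PBS 3-month (19 cells), and the quartiles of the bleomycin 12-month cells were 2.93% and 16.4%.

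Free RNA sets a floor in droplet data. Macrophage-like cells were used to describe it, though their own expression of these genes was not measured apart from free RNA. Their median share was 1.64% in bleomycin 12-month, 1.67% in bleomycin 3-month and 1.56% in PBS 12-month. Endothelial-like cells had 1.48% to 2.02%. That cluster had Acta2, Des and the mesenchymal marker Col1a1 beside Cldn5 among its top 10 genes, so its markers were mixed. Sftpc was counted in 100% of macrophage-like cells and of AT2-like cells alike in every library, so a count of Sftpc alone does not mark a cell. Median depth was 6179 counts in macrophage-like and 12390 in AT2-like cells of bleomycin 12-month. The sort also held macrophage-like cells with high shares (95th percentile 17.8% in bleomycin 12-month), and the part of doublets in them was not tested.

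**Figure D4:**
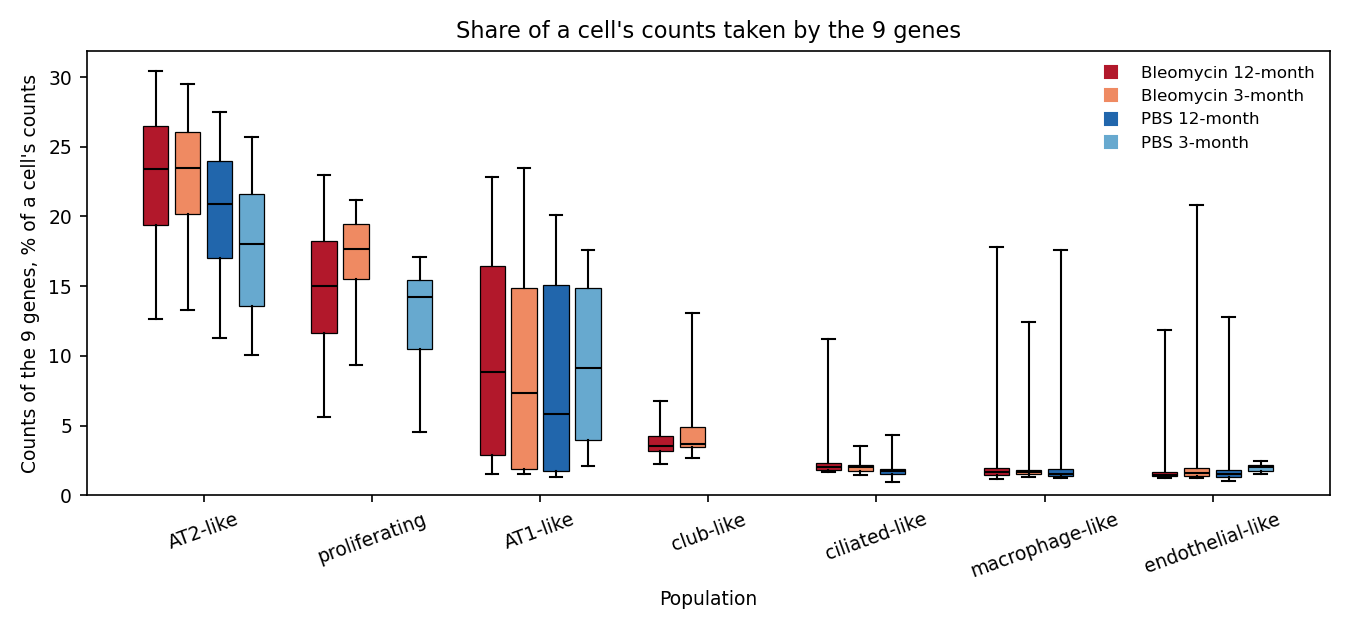
Share of a cell's counts taken by the 9 genes, by population and library, for populations of at least 15 cells in a library. Boxes show the quartiles and median and whiskers the 5th and 95th percentiles of cells. AT2-like cells have medians of 18.0% to 23.5%, AT1-like cells range widely below them, and ciliated-like, macrophage-like and endothelial-like cells have medians near 2%.

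Each gene was then set against Sftpc within a population and compared with AT2-like cells of the same library. RNA carried over from AT2 cells would keep their ratios, but its make-up was not measured here. Macrophage-like cells serve as a comparison, and their values for the 8 genes ran from 0.890 to 1.39 in bleomycin 12-month, from 1.03 to 1.42 in bleomycin 3-month and from 0.751 to 1.55 in PBS 12-month. Club-like cells, secretory cells of the airway, had 3.38-fold more Sftpb per Sftpc count in bleomycin 12-month (3.26 to 3.51, 33 cells) and 2.75-fold more in bleomycin 3-month (2.65 to 2.85, 26 cells). Sftpd was 2.72-fold and 2.90-fold and Sftpa1 2.18-fold and 2.58-fold higher per Sftpc count in the same club-like cells, and Abca3 2.55-fold and 2.64-fold higher. In macrophage-like cells Sftpb stood at 1.0005 in bleomycin 12-month and 1.05 in bleomycin 3-month on the same scale, Sftpd at 0.930 and 1.13, Sftpa1 at 0.890 and 1.32, and Abca3 at 1.34 and 1.11. In macrophage-like cells of bleomycin 12-month 24667 of the 89424 Sftpc counts came from the 265 of 311 cells in which the 9 genes took under 5% of the counts. Cells in which the 9 genes took under 5% were therefore also taken alone, a choice made after seeing the data. In the 27 and 20 club-like cells so kept, Sftpb was at 3.28 and 2.53, Sftpd at 2.75 and 2.53, Sftpa1 at 2.03 and 2.23 and Abca3 at 2.51 and 2.70. In the 265 and 59 macrophage-like cells so kept, Sftpb was at 1.11 and 0.912, Sftpd at 0.895 and 0.852, Sftpa1 at 0.897 and 0.967, but Abca3 at 2.18 (1.87 to 2.53) and 1.71 (1.14 to 2.55). The 3 surfactant protein genes thus stood above their macrophage-like values in club-like cells in both settings, whereas for Abca3 the intervals of the kept club-like and macrophage-like cells overlapped. In the macrophage-like cells so kept Napsa was at 1.42 (1.32 to 1.53) in bleomycin 12-month and 1.69 (1.38 to 2.08) in bleomycin 3-month. In the 42 kept in PBS 12-month Napsa was at 4.27 (3.36 to 5.42). Lpcat1 was at 1.79 (1.57 to 2.04), 1.08 and 1.32 in the same order. Macrophage-like cells thus did not keep the AT2-like ratio for every gene.

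Ciliated-like cells differed in Abca3. Per Sftpc count they had 3.36-fold more Abca3 than AT2-like cells in bleomycin 12-month (2.84 to 3.97, 140 counts), 4.27-fold more in bleomycin 3-month (3.61 to 5.05, 140 counts) and 3.03-fold more in PBS 12-month (2.18 to 4.21, 36 counts). Lamp3, the other lamellar body membrane gene, was at 1.06, 0.78 and 1.23 in the same cells. In ciliated-like cells with under 5% of counts from the 9 genes Abca3 was at 4.62, 5.23 and 3.39, against 2.18, 1.71 and 0.803 in such macrophage-like cells (173, 24 and 5 counts of Abca3 in these). The Abca3 level itself was 267, 272 and 187 CPM in ciliated-like cells, against 517, 608 and 542 CPM in AT2-like cells. Abca3 was counted in 84.4% of ciliated-like and 49.8% of macrophage-like cells of bleomycin 12-month, and in 85.4% and 35.9% of those of bleomycin 3-month. Median counts were 9097 in ciliated-like against 6179 in macrophage-like cells of bleomycin 12-month, and 7476.5 against 3818.5 in bleomycin 3-month.

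Of the 9 genes, Sftpd stood nearest to its AT2-like level in AT1-like cells. Sftpd stood at 71.7% and 76.1% of its AT2-like level in 12-month and 3-month bleomycin mice, and at 74.0% and 79.8% in 12-month and 3-month PBS mice. Sftpc stood at 51.3%, 47.8%, 47.9% and 48.6% in the same libraries, and Slc34a2 was the lowest of the 9 in bleomycin 12-month (37.6%), bleomycin 3-month (37.9%) and PBS 12-month (24.7%). Per Sftpc count, Sftpd was 1.40-fold, 1.59-fold, 1.54-fold and 1.64-fold that of AT2-like cells. Sftpa1, its neighbour on chromosome 14, was at 0.74 in bleomycin 12-month and between 0.96 and 1.04 in the others. The Sftpd ratio was also above 1 in other populations. It was 1.52, 1.82 and 1.16 in ciliated-like cells of bleomycin 12-month, bleomycin 3-month and PBS 12-month. In proliferating cells it was 1.26, 1.40 and 1.24 in bleomycin 12-month, bleomycin 3-month and PBS 3-month. Sftpd stood at 81.7%, 106% and 91.1% of its AT2-like level there. Endothelial-like cells, a cluster of mixed markers, had 1.49 in bleomycin 3-month and 1.74 in PBS 12-month. They had 0.785 in bleomycin 12-month and 0.749 in PBS 3-month.

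**Figure D5:**
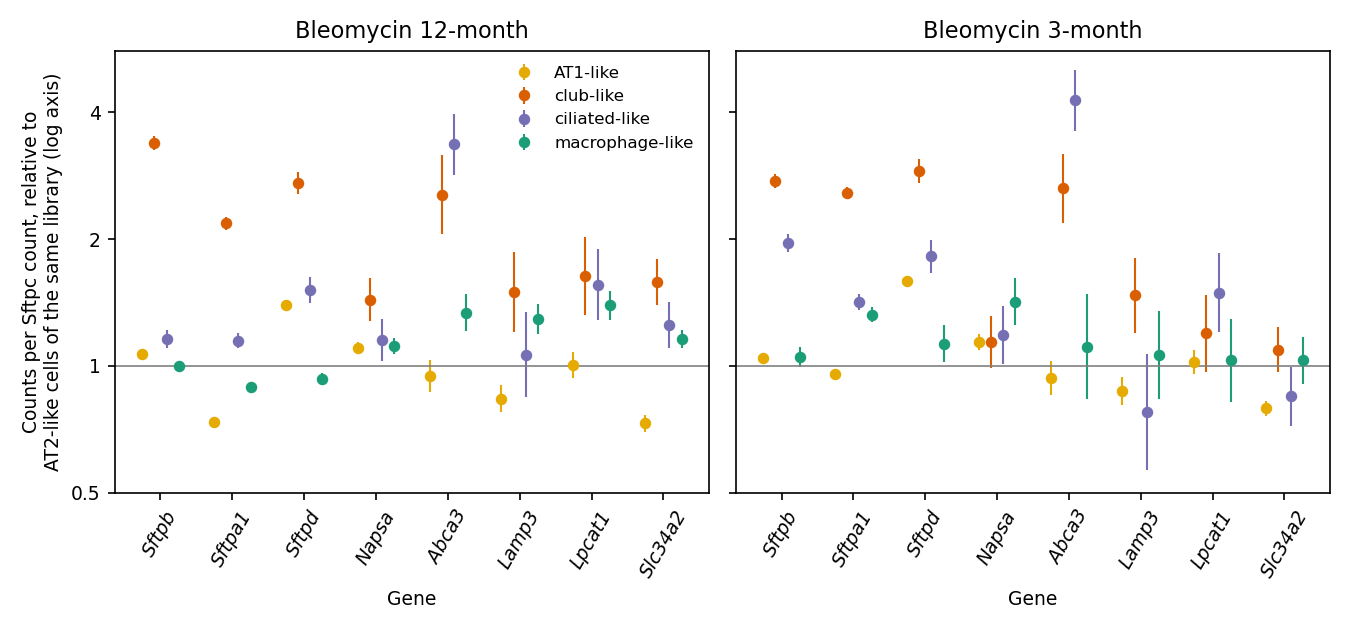
Counts of each gene per Sftpc count in AT1-like, club-like, ciliated-like and macrophage-like cells, relative to AT2-like cells of the same library (log axis), in bleomycin 12-month (left) and bleomycin 3-month (right). Bars are 95% counting intervals. Sftpb, Sftpa1 and Sftpd are above 2 in club-like cells and Abca3 is above 3 in ciliated-like cells, while macrophage-like values lie between 0.89 and 1.42.

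Genes that serve surfactant in other ways were counted from 5 lists. The listed genes were not examined in the depth window, where the lower Slc34a2 and Lpcat1 of bleomycin mice at 12 months were not seen. The part of depth in the ratios of the listed genes was thus not tested, over all cells or in AT2-like cells alone. Of 20 surfactant lipid synthesis genes compared at 12 months, 3 were at least 1.5-fold higher and 9 lower in bleomycin mice, where 19.4% of all genes were higher and 10.5% lower. Their median log2 ratio was -0.49, against 0.12 over all genes. In AT2-like cells alone 2 of 19 were higher and 7 lower, where 17.0% and 11.3% of all genes compared in these cells were. Insig1, a sterol sensor that restrains lipid synthesis, was 2.38-fold lower, with 50.2 CPM in bleomycin 12-month and 119 in PBS 12-month. Scd1, the desaturase that makes monounsaturated fatty acids, was 2.22-fold lower, and Acaca, the carboxylase that opens fatty acid synthesis, 1.95-fold lower. In AT2-like cells alone Insig1, Scd1 and Acaca were 2.30-fold, 1.96-fold and 1.76-fold lower. At 3 months 1 of 20 was higher and 4 lower (10.8% and 9.73% of all genes), with Elovl1, a fatty acid elongase, 2.04-fold higher and Insig1 1.64-fold lower in bleomycin mice. Among bleomycin mice 1 of 20 was higher and 5 lower at 12 months than at 3 months (5.04% and 3.50% of all genes), Scd1 at 1.99-fold lower among them, and among PBS mice 0 of 19 passed in either direction (2.73% and 3.45% of all genes).

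Of 16 lamellar body sorting and secretion genes, 1 was higher and 3 lower in bleomycin mice at each age, where 19.4% and 10.5% of all genes were at 12 months and 10.8% and 9.73% at 3 months. In AT2-like cells alone the counts were 2 and 3 at 12 months and 1 and 3 at 3 months. Of all genes compared in these cells, 17.0% were higher and 11.3% lower at 12 months, and 8.44% and 11.8% at 3 months. Adgrf5, a receptor that limits surfactant pool size in mice, was 1.71-fold lower at 12 months and 1.79-fold lower at 3 months in bleomycin mice. Emc3, which mouse AT2 cells need to mature SP-B and SP-C, was 1.76-fold higher at 12 months, and Cd63, a lysosomal membrane tetraspanin, 1.58-fold higher at 3 months. By age, 0 of 16 passed among bleomycin mice (5.04% higher and 3.50% lower of all genes) and 0 of 14 among PBS mice (2.73% and 3.45%).

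Of 11 transcription factors of surfactant genes, 1 was higher and 3 lower at 12 months in bleomycin mice (19.4% and 10.5% of all genes), and 1 was higher and 2 lower at 3 months (10.8% and 9.73%). The factor higher at 3 months, Klf5, was at 1.61-fold over all cells and at 1.46-fold in AT2-like cells. There 0 of 11 were higher at 3 months, against 8.44% of all genes compared in these cells. Foxa1, a pioneer factor of lung epithelium, was lower in bleomycin mice at both ages. It had 21.0 CPM in bleomycin 12-month and 56.3 in PBS 12-month, 2.69-fold lower, and 36.2 CPM in bleomycin 3-month and 74.8 in PBS 3-month, 2.06-fold lower, and in AT2-like cells alone it was 2.45-fold and 2.10-fold lower. Tfcp2l1 was 2.11-fold lower at 12 months and 1.83-fold lower at 3 months. By age 0 were higher and 1 lower of 11 among bleomycin mice (5.04% and 3.50% of all genes), and 0 of 10 passed among PBS mice (2.73% and 3.45%).

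Of 4 genes of surfactant lipid turnover and export that reached 20 CPM, 1 was higher and 2 lower at 12 months in bleomycin mice (19.4% and 10.5% of all genes). Psap, the precursor of the saposins that aid lysosomal lipid breakdown, was 4.34-fold higher, with 311 CPM in bleomycin 12-month and 71.6 in PBS 12-month. At 3 months 1 of 4 was higher and 0 lower (10.8% and 9.73% of all genes), Psap at 2.47-fold. Psap is also abundant in macrophages, and the summed macrophage markers without Lyz2 were 831 CPM in bleomycin 12-month, 195 in bleomycin 3-month, 107 in PBS 12-month and 25.8 in PBS 3-month. In AT2-like cells alone Psap had 73.0 CPM in bleomycin 12-month and 39.3 in PBS 12-month, 1.86-fold higher, and 41.4 CPM in bleomycin 3-month and 41.9 in PBS 3-month, a ratio of 0.989. The same macrophage markers summed to 103.7 CPM in AT2-like cells of bleomycin 12-month, 30.8 of bleomycin 3-month, 25.5 of PBS 12-month and 15.3 of PBS 3-month, and their part in the Psap ratios was not tested. By age, 1 of 4 was higher and 1 lower among bleomycin mice (5.04% and 3.50% of all genes), and 1 of 4 was higher among PBS mice (2.73% of all genes). The last was Prdx6, a phospholipase that recycles surfactant lipid, at 1.51-fold over all cells and 1.42-fold in AT2-like cells, where it no longer passed.

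Of 14 other AT2 markers, 2 were higher and 3 lower in bleomycin mice at each age, where 19.4% and 10.5% of all genes were at 12 months and 10.8% and 9.73% at 3 months. By age 1 was higher and 2 lower among bleomycin mice (5.04% and 3.50% of all genes), and 1 passed in each direction among PBS mice (2.73% and 3.45%). Of the 2 lower by age among bleomycin mice, Hc, the complement C5 gene, was 1.51-fold lower over all cells and 1.44-fold lower in AT2-like cells. In AT2-like cells 2 of the 14 markers were lower in bleomycin mice at 12 months and 3 at 3 months (11.3% and 11.8% of all genes compared in these cells). Chil1, a chitinase-like secreted protein, was 2.44-fold higher at 12 months and 4.72-fold higher at 3 months in bleomycin mice. Lyz1, a lysozyme, was 2.23-fold lower at 12 months and 1.69-fold lower at 3 months.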

How the data were processed

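Per the labels' protocols, GFP-positive CD45-negative CD31-negative cells of 3 pooled mice gave 1 library per group, made with the 10x Genomics 3' kit. The deposited files hold raw counts of unique molecules for each gene and barcode. Per the submitters' processing notes Cell Ranger, mouse build mm10 and Seurat 3.2.2 were used, with no Cell Ranger version given in the sources used here. The authors' counts were whole numbers and were not normalized. The 9 genes, the 5 gene lists and the markers were chosen with earlier results of these data known.

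Barcodes under 500 genes or over 20% mitochondrial counts were dropped. All cells were clustered together without the 9 genes (2000 variable genes, 30 principal components, 15 neighbours, Leiden resolution 0.5, scanpy 1.11.5 and python-igraph 0.11.9). Clusters took a class with at least 2 fixed markers among their top 10 genes and at least 3 detected, and otherwise AT2-like where at least 3 AT2 markers were detected. The barcodes with the highest Scrublet scores were flagged as doublets, 72, 56, 63 and 48 in bleomycin 12-month, bleomycin 3-month, PBS 12-month and PBS 3-month. These numbers were set beforehand by an expected rate of 0.8% per 1000 barcodes and do not measure how many doublets there were. Flagged barcodes were kept in the main setting. The marker symbols, Trbc2 and Pclaf, were not matched and not used here.

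Counts were summed per library and expressed as CPM with numpy 2.4.6 and scipy 1.17.1 under Python 3.11.15. Ratios used a prior of 0.5 counts and exact conditional binomial 95% intervals, levels exact Poisson intervals, and ratios per Sftpc count and differences between ages normal intervals of log counts. A gene counted as higher or lower from 1.5-fold. A single count equals 0.0271, 0.0429, 0.0708 and 0.0885 CPM in the order above. In simulated counts the intervals held the true fold for 95.1% to 95.7% of genes over the 4 comparisons. These counts were drawn from the Poisson model that the intervals assume. The result therefore checks the calculation and says nothing of spread between cells or mice. Text names the 9 genes, up to 3 genes per list and comparison with the largest log2 ratio at 20 CPM or more, and the 5 genes most like the summed counts of the 9 across cells. Coordinates are from GENCODE M21 on GRCm38, promoters from RefSeq on GRCm38.p6. Alternatives covered scaling, filters on cells, doublets, cell populations, cell weights, thinning to 3000 counts and the fold threshold.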

Additional observations from a re-analysis of the deposited data

Results flagged for a closer look

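Some members had ratios on opposite sides of 1 at the 2 ages or in the 2 treatments, with counting intervals that left out 1 on both sides, and none of these differences was tested between mice. Sftpc stood at 0.958 of the PBS level in bleomycin mice at 12 months and at 1.15 at 3 months, a difference between the log2 ratios of -0.26. Sftpa1 stood at 0.874 and 1.07, a difference of -0.29. In AT2-like cells alone Sftpc was above 1 at both ages (1.07 and 1.254), and Sftpa1 was at 0.991 and 1.16.

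By age, Sftpc stood at 0.927 of its 3-month level among bleomycin mice and at 1.11 among PBS mice, a difference of -0.26 in log2 ratios, and Sftpa1 at 0.932 and 1.14, a difference of -0.29. The same 4 libraries give these values, so they repeat the contrast above. Sftpb stood at 0.954 among bleomycin mice and 1.02 among PBS mice, a difference of -0.10 (-0.0950), and Lpcat1 at 0.774 and 1.04, a difference of -0.43.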

How the results depend on the processing

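No paired analysis was possible because each group is 1 library. Of the 2 members higher and 1 lower in bleomycin mice at 12 months, the count lower was 0 with alveolar cells only, with AT2-like cells only at either Leiden resolution, with AT2-like cells and a total without the 9 members, and with AT2-like cells of 5000 to 8000 counts, the last 2 chosen after seeing the data. At 2-fold in place of 1.5-fold 1 member was higher and 0 were lower at 12 months (7.77% and 4.11% of all genes), and 0 were higher at 3 months (3.61%). At a difference of 25% in place of 1.5-fold 2 were lower at 12 months (20.9% of all genes), 2 were higher at 3 months (24.4%), and by age among bleomycin mice 2 were higher and 2 lower (11.7% and 13.1%). In AT2-like cells of 5000 to 8000 counts 0 members were higher at 3 months, and the log2 ratio of Slc34a2 at 12 months turned to 0.051. Sftpd and Napsa were past 1.5-fold at 12 months in all 13 alternatives that change cells or scaling, with log2 ratios of 0.61 to 0.89 and 0.82 to 1.18, and Napsa at 3 months in 12 of them (0.64 to 0.94), with 0.57 in AT2-like cells of 5000 to 8000 counts. Median-of-ratios scaling moved the median of all genes by -0.12 at 12 months and -0.11 at 3 months, the same amount for every member. All genes past 1.5-fold numbered 938 higher and 509 lower at 12 months and 530 and 477 at 3 months, but 275 and 139, and 131 and 133, at a minimum of 100 CPM, and 4083 and 1884, and 3464 and 1422, at 10 counts with no CPM minimum. By age they numbered 240 and 167 among bleomycin mice and 125 and 158 among PBS mice, but 79 and 41, and 34 and 42, at 100 CPM, and 2095 and 1555, and 1623 and 1060, at 10 counts. Depth differs between treatments and 1 library per group gives no error between mice. The cause of these shifts was not tested.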
